A study of Mus musculus with 28 samples.

Results

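The 78 genes described here encode the proteins of the mitochondrial ribosome that carry an Mrpl or Mrps name, which stand for its large and its small subunit. They were chosen as the protein-coding rows of both deposited tables whose symbol begins with Mrpl or Mrps followed by a number, and they are 78 of the 14888 genes that both tables hold. Mouse annotation (GENCODE M21, GRCm38) names 78 protein-coding genes of this pattern, so each of them was measured. The tissue was frontal cortex, and each of the 28 libraries came from a separate male mouse of the C57Bl/6 strain. The study set a social against a metabolic stress, each in a cohort with controls of its own. In the first cohort, 8 mice of 21 weeks under chronic social stress (CSS) had been isolated for 7 weeks and confronted with other mice on each of the final 20 days, and 8 controls were of the same age. In the second, 6 mice of 30 or 31 weeks with induced type 2 diabetes (T2D) had received 75 mg/kg streptozotocin, a toxin of insulin-producing cells, and, for 21 weeks, a diet in which fat supplied 43.2% of the energy, and 6 controls were of 30 or 31 weeks. The labels call the controls' treatment control conditions and say nothing of their housing or diet. No group carried a transgene or a deletion.

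Mitochondria make a few proteins of the respiratory chain on ribosomes of their own. The RNA of these ribosomes is transcribed from mitochondrial DNA, whereas all of their proteins are encoded in the nucleus, made in the cytosol and imported. Some of the proteins descend from those of bacterial ribosomes and others were added in mitochondria. In the cortex, where neurons use much energy, the respiratory chain depends on this second translation system. By these origins, 29 of the genes encode large-subunit proteins with a bacterial counterpart and 22 encode large-subunit proteins found in mitochondria only. A further 16 encode small-subunit proteins with a bacterial counterpart and 10 encode small-subunit proteins of mitochondria only. The remaining gene, Mrps36, carries the name but encodes a part of the 2-oxoglutarate dehydrogenase complex of the citric acid cycle. Mrps18a and Mrps30 are named for the small subunit but were counted with the large one, in which their proteins lie.

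Levels are given as CPM, the counts relative to the size of the library, with sizes scaled by TMM, which corrects for differences in library composition. A gene was called changed where edgeR's quasi-likelihood test gave a Benjamini-Hochberg adjusted p under 0.05 over all genes of the comparison. Estimated counts summed to 12.05 M (10 to the power of 6) in the smallest library and to 37.48 M in the largest, and RNA integrity numbers (RIN) ran from 8.5 to 10. Markers of cortical neurons were present throughout, with Slc17a7, Tbr1, Gad1 and Gad2 above 0 in each library. Markers of striatal projection neurons were present too, and Drd1 lay between 15.3 and 152.3 CPM in the T2D cohort. In the CSS cohort 2 libraries stood apart in the mean level of the 78 genes, as described below. The tissue is a mixture of cells, so fewer cells of a type and less RNA per cell cannot be told apart.

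The 78 genes were short and lay on 17 chromosomes. Their longest annotated transcripts had a median of 1866.5 bases and 4 exons, against 3571.5 bases and 8 exons over the 13496 protein-coding genes of both tables. A protein-coding neighbour that starts on the opposite strand within 1000 bases, as at a shared promoter, was annotated for 19 of them (24.4%) and for 10.2% of the protein-coding genes. More than 5% of the exon bases were shared with a gene on the same strand in 5 members. These were Mrpl53 with Gm42688, Mrps18c with Gm43511, Mrps24 with Urgcp, Mrps34 with Nme3 and Mrps6 with Gm49711, and their values are less certain. In 21 members more than 5% overlapped a gene on the opposite strand, up to 69.8% in Mrps25 and 63.4% in Mrps34. The use of strand in counting is not given, so these values may be less certain too. A further check of the transcripts found 4 members that match another gene with at least 95% identity over 50% or more of their longest transcript. They were Mrpl22, Mrpl27, Mrps21 and Mrpl53, and the matching gene was itself counted in the tables for Mrpl53 alone.

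The members were expressed in every library at moderate levels. Per kb of the longest annotated transcript, the median member had 11.05 CPM per kb in the CSS controls, and the range from 1.07 to 51.0 CPM per kb spanned 47.6-fold. Mrps21, the small-subunit counterpart of bacterial S21, was highest with 51.0 ± 4.399 CPM per kb (SD, n = 8). The large-subunit gene Mrpl41 followed with 37.2 ± 4.55, the small-subunit gene Mrps33 with 35.98 ± 3.55 and Mrpl20, the counterpart of bacterial L20, with 33.1 ± 3.16 CPM per kb (SD, n = 8 each). By this measure Mrps21 stood above the others, whereas Mrpl41, Mrps33 and Mrpl20 differed by less than the spread between libraries. The longest transcript of Mrps21 has 488 bases and its exons together 739, so its lead depends on the length used. The same 4 genes were the highest in the T2D controls, and 3 of them were among the top 4 when levels were divided by the union of each gene's exons instead. Of the 4 lowest genes, 3 were also lowest in the T2D controls and 2 with the union of exons. At the low end stood Mrps35 with 4.17 ± 0.608, Mrpl13 with 3.34 ± 0.270, Mrpl17 with 2.70 ± 0.350 and Mrpl23 with 1.07 ± 0.412 CPM per kb (SD, n = 8 each). Mrpl23, the counterpart of bacterial L23, also varied most between the CSS controls, with a coefficient of variation of 38.5% against a median of 9.85% over the members. Its longest annotated transcript has 3715 bases in 1 exon, and a pseudogene row of the tables, Mrpl23-ps1, had 16.3 ± 1.85 CPM where Mrpl23 itself had 3.98 ± 1.53 CPM (SD, n = 8 each). Counting could split reads between the gene and its pseudogene, so the level of Mrpl23 is uncertain.

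**Figure D1:**
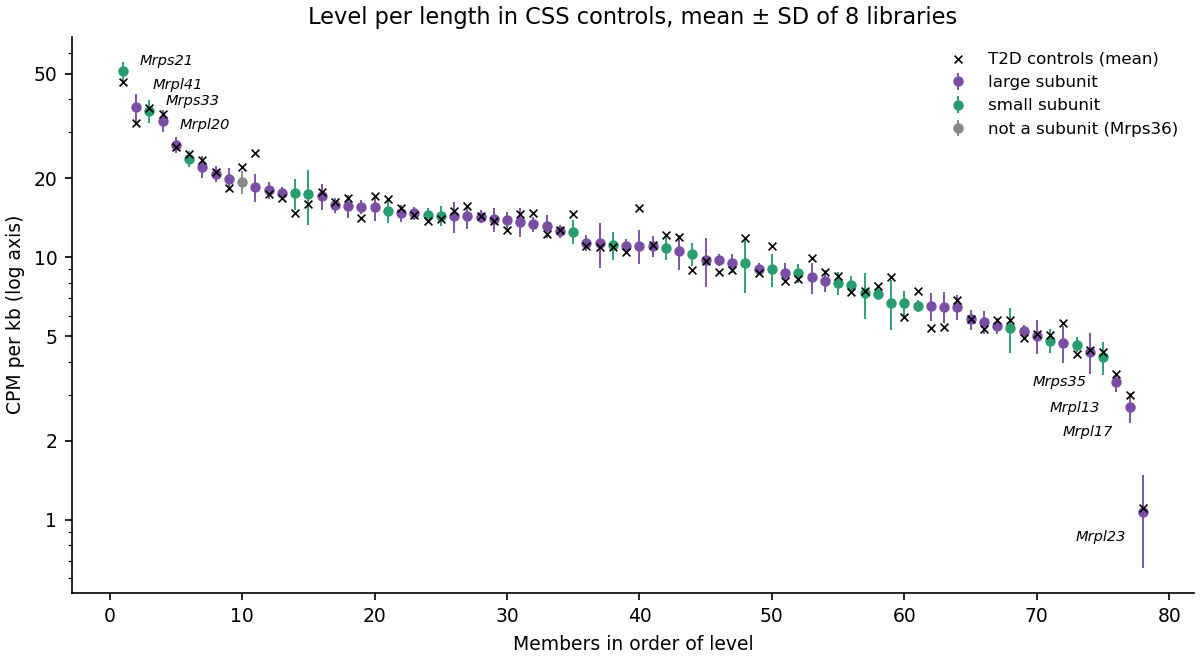
Level of each of the 78 members in the CSS controls, in CPM per kb of the longest transcript on a log axis, ordered from the highest to the lowest. Circles with bars give the mean ± SD of 8 libraries, coloured by subunit, and crosses the mean of the 6 T2D controls. Mrps21 lies at the top with 51.0 and Mrpl23 at the bottom with 1.07 CPM per kb.

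Under chronic social stress 4 mitochondrial ribosomal protein genes had less RNA than in the controls, and none had more past the threshold. These calls rested on which libraries were compared, as given further on. The 4 were Mrpl32, Mrpl42 and Mrpl57 of the large subunit and Mrps15 of the small subunit, and each had between 0.75 and 0.85 times its control level. All of them stood below the average control in 8 of 8 CSS libraries. Over all 15097 genes, 4.52% were called in either direction and 2.42% were called lower, so the share of members called was near that background. The estimates as a whole lay slightly below 0: 60 of the 78 genes were below 0, against 48.7% of all genes. The median log2 fold change was -0.06, against 0.01 over all genes.

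Mrpl32, the counterpart of bacterial L32, is cut to its mature form by a protease of the inner membrane before it joins the large subunit. It lies on chromosome 13 from 14608184 to 14613165 on the minus strand. Its level was 10.4 CPM in the lowest CSS library, 15.2 in the median and 17.2 in the highest, against 16.8, 19.4 and 22.7 CPM in the controls. In 7 of the 8 CSS libraries it was below every control, and the groups overlapped in the remaining library. The log2 fold change was -0.42 ± 0.096 (SE), and edgeR's adjusted p was 0.0217.

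Mrpl42 encodes a large-subunit protein of mitochondria only and lies on chromosome 10 from 95480805 to 95501940. It was the most abundant of the 4 and varied least between controls. The CSS libraries had 22.6 CPM at the lowest, 27.2 at the median and 30.4 at the highest, against 29.2, 32.2 and 34.2 CPM in the controls. The fall was small but larger than the spread, with 6 of 8 CSS libraries below every control. Its log2 fold change was -0.23 ± 0.061 (SE), with an adjusted p of 0.0380 by edgeR.

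Mrps15, the counterpart of bacterial S15, is one of the proteins that bind the small ribosomal RNA directly, and its gene lies on chromosome 4 from 126046925 to 126055532. Its levels were 13.2, 14.1 and 16.7 CPM in the lowest, median and highest CSS library, against 14.6, 18.6 and 22.1 CPM in the controls. Among the CSS libraries 5 of 8 were below every control. The log2 fold change was -0.32 ± 0.086 (SE), with an adjusted p of 0.0394 by edgeR.

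Mrpl57 encodes a small large-subunit protein of mitochondria only, on chromosome 14 from 57826234 to 57829296. In CSS it had 13.2, 15.2 and 17.1 CPM in the lowest, median and highest library, and in the controls 16.3, 17.9 and 23.8 CPM. Here 6 of 8 CSS libraries were below every control, and 1 control library was well above the rest. The log2 fold change was -0.30 ± 0.082 (SE), with an adjusted p of 0.0455 by edgeR. For no member did the CSS and control groups separate completely, where 0.397% of all genes separated as lower in CSS and 0.212% as higher.

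**Figure D2:**
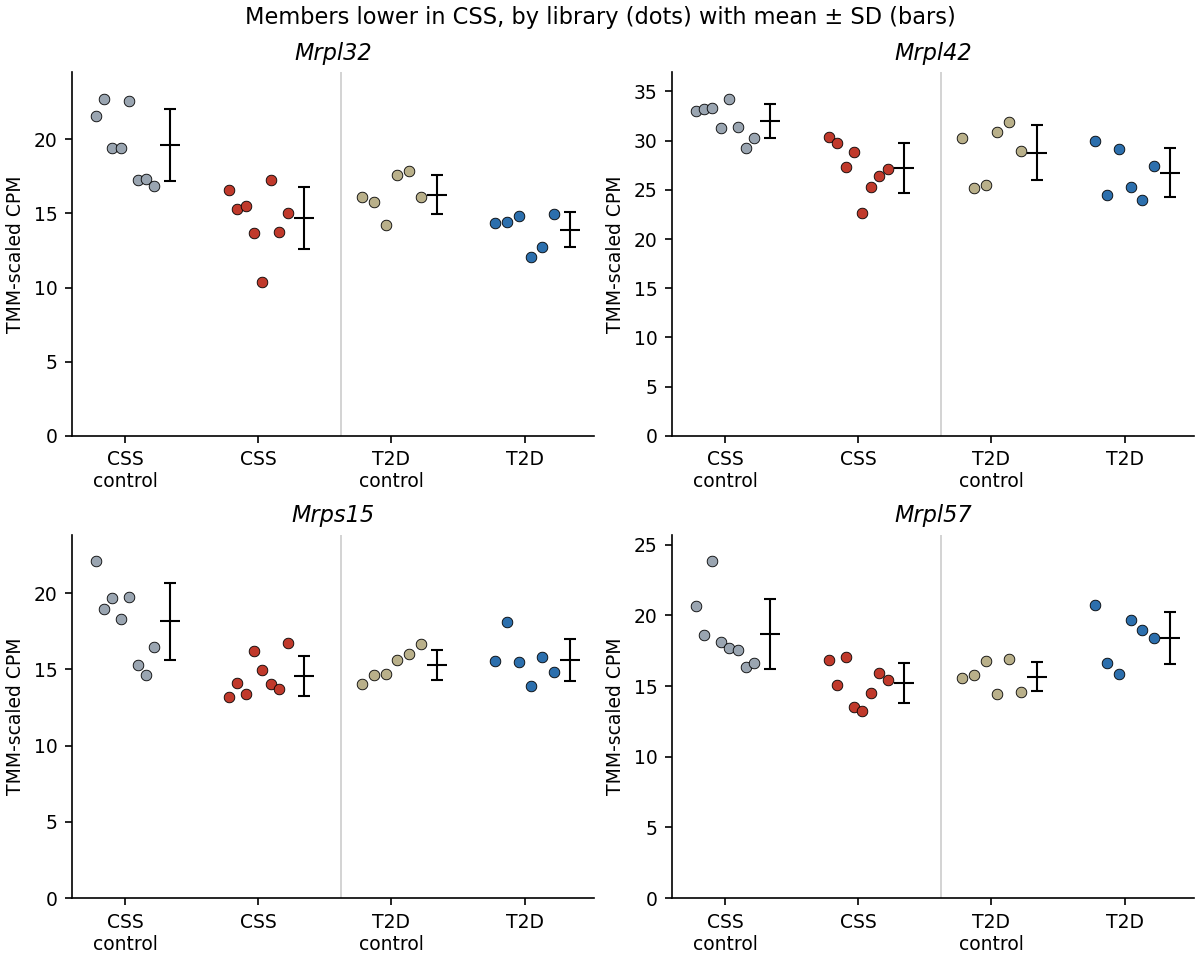
TMM-scaled CPM of Mrpl32, Mrpl42, Mrps15 and Mrpl57 in each library of the 4 groups, in order of replicate number, with the mean ± SD beside each group. The CSS points lie mostly below those of the CSS controls, while in the T2D cohort Mrpl57 lies on the other side of its controls.

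The promoters of these 4 genes are shown so that the letters before the starts of genes that fell together can be compared. Motifs of 3 factors known to act on genes of mitochondrial function were searched on both strands in a window of 280 bases, from 250 before to 30 after the RefSeq start (table of build GRCm38.p6). They were NRF1 as GCGC, any base, then TGCGC, ETS factors such as GABPA as CCGGAAG, and YY1 as AAGATGGC. A window was given for 69 of the 78 members. Mrpl32 and Mrpl57 held matches, printed with 30 bases around each because their windows run through annotated exons, and Mrpl42 and Mrps15 held none. By the GENCODE gene models, the YY1 match of Mrpl32 lies inside its divergent neighbour Psma2, and the NRF1 match inside Mrpl32 itself. The ETS match of Mrpl57 lies inside Mrpl57, and its NRF1 match overlaps the first bases of its divergent neighbour Ska3. Each sequence is written 5' to 3' on the strand of the gene with the match in capitals. They are, in order, the YY1 match of Mrpl32 at chr13:14613258-14613287 (minus strand, first base 242 before the start), its NRF1 match at chr13:14613105-14613134 (87 before), the NRF1 match of Mrpl57 at chr14:57826172-57826201 (plus strand, 57 before) and its ETS match at chr14:57826232-57826261 (4 after). The window of Mrpl42 at chr10:95501920-95502199 (minus strand) and that of Mrps15 at chr4:126046678-126046954 (plus strand) follow, the latter with 277 bases and 27 of them after the start.
Mrpl32 YY1: cgcgctctGCCATCTTtacccggaaagtcg
Mrpl32 NRF1: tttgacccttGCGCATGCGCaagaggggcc
Mrpl57 NRF1: tttgaatcctGCGCAGGCGCagaaggcgtc
Mrpl57 ETS: ccccagagagaCCGGAAGcagcgcgccgcc
Mrpl42: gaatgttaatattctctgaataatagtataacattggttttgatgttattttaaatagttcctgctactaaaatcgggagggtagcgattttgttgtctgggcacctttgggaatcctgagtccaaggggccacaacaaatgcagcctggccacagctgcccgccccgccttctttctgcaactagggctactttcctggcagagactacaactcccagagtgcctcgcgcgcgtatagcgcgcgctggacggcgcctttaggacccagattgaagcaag
Mrps15: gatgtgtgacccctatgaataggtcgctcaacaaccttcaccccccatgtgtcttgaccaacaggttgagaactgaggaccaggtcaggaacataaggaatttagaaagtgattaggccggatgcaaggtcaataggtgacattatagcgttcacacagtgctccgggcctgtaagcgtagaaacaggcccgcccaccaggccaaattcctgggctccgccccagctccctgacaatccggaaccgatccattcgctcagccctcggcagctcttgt

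No motif was common to the 4 genes. Over the members with a window, the NRF1 letters were found in 13 of 69 (18.8%), against 10.6% of 10633 protein-coding genes of the tables. The ETS letters were found in 24 of 69 (34.8%), against 18.1% of the coding genes. Those of YY1 were found in 8 of 69 (11.6%), against 3.85%. These shares count a gene once if any of its windows matched. Counted by window, NRF1, ETS and YY1 letters were in 17.3%, 32.0% and 10.7% of the members' windows. Over all windows, not limited to genes of the tables, they were in 4.41%, 8.45% and 2.29%. These are matches of letters and were not measured as bound sites. RNA of the factors themselves was not called in CSS for any of 10 regulators of mitochondrial genes, among them Nrf1, Gabpa, Yy1 and Ppargc1a. The nearest to the threshold was Gabpb1, which encodes the partner of GABPA, with a log2 fold change of 0.24 ± 0.078 (SE) and an adjusted p of 0.0787 by edgeR.

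Of the 4 called genes, Mrpl32 and Mrpl57 have a divergent neighbour, Psma2 at 75 bases and Ska3 at 49 bases. Psma2, a proteasome subunit, had a log2 fold change of -0.11 ± 0.057 (SE) in CSS with an adjusted p of 0.273 by edgeR, and Ska3 is not in the tables. Among the 19 members with such a neighbour, 17 had estimates below 0, and their median log2 fold change was -0.11. Among the 59 members without one, 43 were below 0 and the median was -0.04, and the difference was not tested. Of the neighbours of the 19 members, 17 were in the CSS table, 0 were called, 9 were below 0 and their median was -0.04.

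The called genes came from 3 of the 4 classes of subunit, and the class medians all lay below 0. Of the large-subunit genes of mitochondria only, 2 of 22 fell (Mrpl42 and Mrpl57), 19 of 22 were below 0 and the median log2 fold change was -0.11. Of the large-subunit genes with a bacterial counterpart, 1 of 29 fell (Mrpl32), 20 were below 0 and the median was -0.04. Of the small-subunit genes with a bacterial counterpart, 1 of 16 fell (Mrps15), 12 were below 0 and the median was -0.06. None of the 10 small-subunit genes of mitochondria only was called, 9 were below 0 and the median was -0.07. Differences between the classes were not tested. At an unadjusted p under 0.05, 17 of the 78 genes were lower and 1, Mrpl3, was higher, where 10.5% and 11% of all genes were lower and higher. Among the 53 members that share no more than 5% of their exon bases with another gene on either strand, all 4 calls were included. Of these 53, 42 were below 0 and the median was -0.07.

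**Figure D3:**
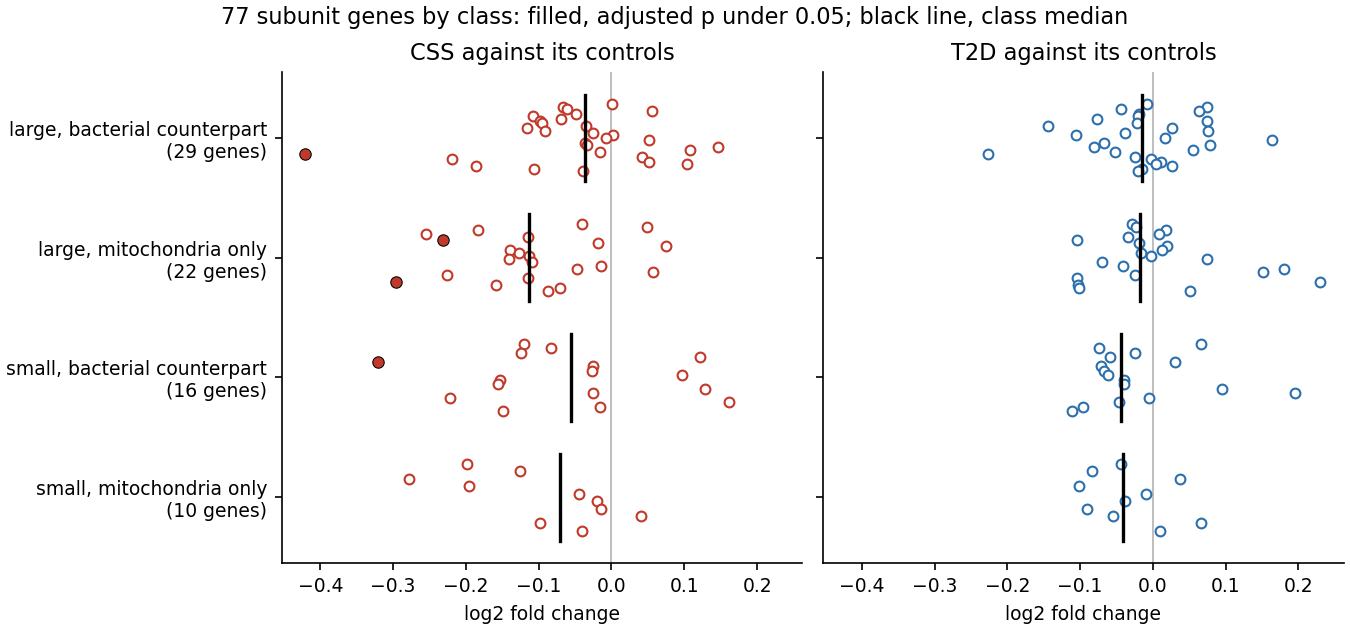
Log2 fold change of the 77 subunit genes in CSS (left) and in T2D (right), each against its own controls, by subunit and origin of the protein. Filled points passed an adjusted p of 0.05 and black lines are class medians, which in CSS run from -0.11 to -0.04. No point is filled in T2D.

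Next in order, 4 genes came near the threshold without passing it. Mrpl4, the counterpart of bacterial L4, had 22.5 ± 1.45 CPM in CSS and 25.6 ± 1.50 CPM in the controls (SD, n = 8 each), with an adjusted p of 0.0637 by edgeR. Mrpl54 and Mrpl40, large-subunit genes of mitochondria only, had adjusted p-values of 0.0752 and 0.0763 at log2 fold changes of -0.23 and -0.25. Mrps18b, of the small subunit, had -0.20 and 0.0822. In all 8 CSS libraries each of these 4 genes was below the average control. The low estimate of Mrps23, -0.28 ± 0.13 (SE), went with a wide spread, from 18.2 to 33.3 CPM over the controls, and its adjusted p was 0.217.

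A smaller number of members had estimates above 0. The highest were Mrps6 at 0.16 ± 0.095, Mrpl28 at 0.15 ± 0.079, Mrps24 at 0.13 ± 0.12 and Mrps14 at 0.12 ± 0.11 (log2 fold change ± SE), with adjusted p-values from 0.290 to 0.583. The 3 genes related to bacterial S18 did not move together. Mrps18a, whose protein lies in the large subunit, had -0.07 ± 0.050, Mrps18b -0.20 ± 0.065 and Mrps18c, the direct counterpart of S18, 0.10 ± 0.089 (log2 fold change ± SE), and none was called. Mrpl12, whose protein also binds the mitochondrial RNA polymerase, had 0.06 ± 0.098, and the non-ribosomal Mrps36 had 0.02 ± 0.080.

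The rest of the system that expresses mitochondrial DNA showed a mixed picture in CSS, where 2.42% of all genes were called lower and 2.11% higher. Against 4 of the 8 controls alone no gene was called, as given further on. Ssbp1, which coats single-stranded mitochondrial DNA, fell from 20.7 ± 1.48 to 16.9 ± 1.64 CPM (SD, n = 8 each, edgeR's adjusted p 0.0228). Hsd17b10, a subunit of the enzyme that trims mitochondrial tRNA, fell from 16.1 ± 0.938 to 13.6 ± 0.906 CPM (adjusted p 0.0350). These were 2 of 17 genes of mitochondrial DNA replication and transcription, and 0 rose. Of 27 genes of mitochondrial ribosome assembly, 1 fell and 0 rose. It was Rbfa, which helps to mature the small subunit, with 17.3 ± 1.73 against 21.2 ± 2.66 CPM (SD, n = 8 each, adjusted p 0.0451), and 43.9% of its exon bases overlap a gene on the other strand. None passed among 16 translation factors, 20 aminoacyl-tRNA synthetases and 5 ribosome subunits with other names, where the lowest adjusted p-values were 0.124 (Mtrf1, a release factor homologue), 0.167 (Sars2) and 0.186 (Gadd45gip1). Of the 13 proteins encoded in mitochondrial DNA, the products of these ribosomes, 6 fell at the RNA level and 0 rose, among them mt-Nd6 of complex I at -0.89 ± 0.16 and mt-Cytb of complex III at -0.43 ± 0.093 (log2 fold change ± SE, adjusted p 0.00970 and 0.0193). The list went both ways, with 4 of 13 genes above 0 and the highest, mt-Co2, at 1.29 ± 0.43 (adjusted p 0.0964, not called and named after its value was seen). The mitochondrial ribosomal RNAs, which the rRNA depletion targets, were not called (mt-Rnr1 at -0.22, adjusted p 0.509, and mt-Rnr2 at -0.12, adjusted p 0.551).

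Related families are given beside the members for comparison, where 2.42% of all genes were called lower in CSS and 2.11% higher. Of 80 cytosolic ribosomal protein genes, 2 rose and 4 fell in CSS, 38 were below 0 and the median was 0.02. Of 76 nuclear genes of the respiratory chain and ATP synthase, 5 fell and 0 rose, 40 were below 0 and the median was -0.01. Of the 17 genes of mitochondrial DNA replication and transcription, 14 were below 0 with a median of -0.08, and of the 16 translation factors 12 were below 0 with a median of -0.07. The medians of these last lists lay near the -0.06 of the members, and those of other lists did not. Of 27 ribosome assembly genes 11 were below 0, with a median of 0.03. Of 20 aminoacyl-tRNA synthetases 8 were below 0, with a median of 0.02. Of 10 regulators 3 were below 0, with a median of 0.02, and of 5 ribosome subunits with other names 3, with -0.02. No difference between families was tested.

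The mean level of the 78 genes varied between libraries, and 2 libraries of the CSS cohort lay far out. As a difference from the average control, the mean log2 level was -0.25 in CSS replicate 5, in which 71 of 78 genes were below the control mean, and 0.13 in CSS control replicate 5, in which 11 of 78 were. In the other 7 CSS libraries it lay between -0.07 and -0.03 and in the other 7 controls between -0.07 and 0.02. These 2 libraries were also the extremes in the length slope. It measures whether long or short transcripts are favoured in a library relative to its cohort. The fit is, on log2 transcript length, of each gene's log2 level minus its mean over the cohort's libraries. Genes at very low levels were left out. With this centring the means of 2 groups of equal size mirror each other. That slope was 0.104 in CSS replicate 5 and -0.0636 in CSS control replicate 5. Over the groups it was 0.0192 ± 0.0357 in CSS and -0.0192 ± 0.0213 in the controls (SD, n = 8 each), a difference past the threshold in a two-sided exact permutation test (p = 0.00249, adjusted 0.0149 over 6 comparisons of library values). RIN did not differ detectably (exact permutation p = 0.548). The members are shorter than most genes. Split at their median length, 27 of 39 members with shorter transcripts were below 0 in CSS, with a median log2 fold change of -0.03. Of the 39 with longer transcripts, 33 were below 0, with a median of -0.10. The part of the slope in the members' lower estimates was not tested beyond the fits that follow.

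**Figure D4:**
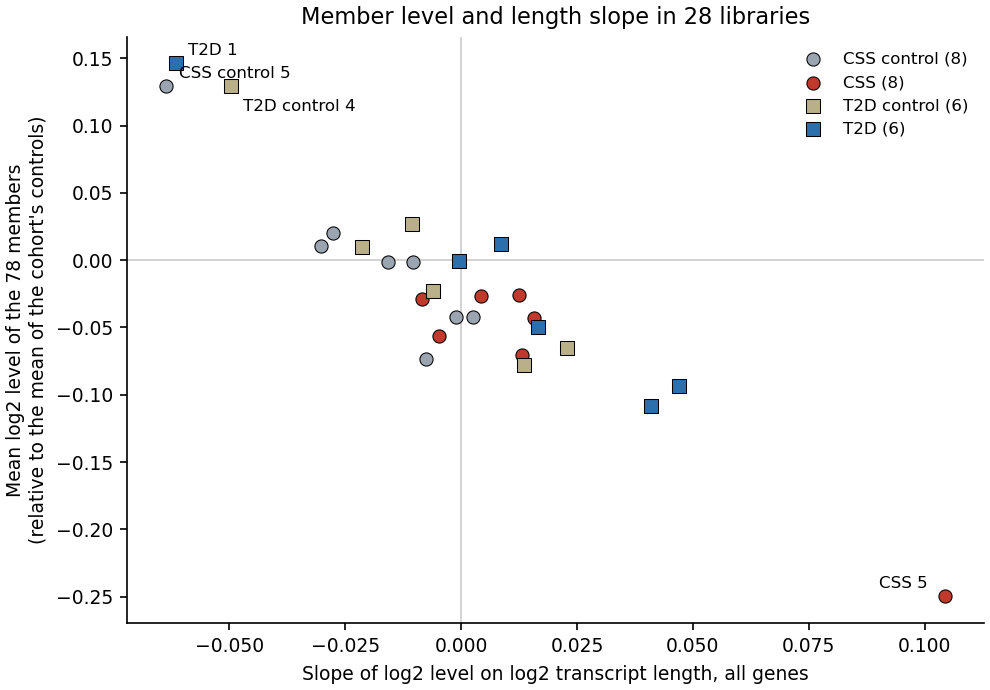
Mean log2 level of the 78 members in each of 28 libraries, as a difference from the average control of its cohort, against the length slope of that library. The slope is that of each gene's log2 level, minus its mean over the cohort's libraries, on log2 transcript length. CSS replicate 5 lies at the lower right with -0.25 and a slope of 0.104, and CSS control replicate 5, T2D replicate 1 and T2D control replicate 4 lie at the upper left.

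With both libraries left out, none of the 78 genes was called, where 1.54% of all genes still were. Then 47 of 78 were below 0 and the median was -0.03. The 4 genes kept estimates below 0 in that fit, with Mrpl32 at -0.33 (adjusted p 0.0528), Mrps15 at -0.31 (0.0941), Mrpl57 at -0.28 (0.0956) and Mrpl42 at -0.18 (0.0956) on the log2 scale. The fit holds fewer libraries. When an offset for transcript length was fitted in each library, Mrpl32 alone remained called, at -0.40, where 2.87% of all genes were. The log2 fold changes of the others were -0.22 for Mrpl42 (adjusted p 0.0503), -0.28 for Mrpl57 (0.0710) and -0.26 for Mrps15 (0.109). In that fit 46 members were below 0 and the median was -0.05. Leaving out single libraries gave 1 to 5 called members. Mrpl32 kept its call in all 16 such fits, with adjusted p-values up to 0.0497, whereas Mrpl42 lost it in 10, Mrps15 in 11 and Mrpl57 in 11. Leaving out CSS replicate 5, 6 or 7, or CSS control replicate 1, 2, 3, 4 or 5, ended the call of each of these 3 genes. The count was 2 without CSS replicate 2, 3 or 8 and 1 without each of those 8 libraries.

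The controls of the CSS cohort gave different calls according to which of them were used. Their titles hold a code with a number after the letter C whose meaning the labels do not give, and it is 1 in CSS control replicates 1 to 4, 2 in replicates 5 to 7 and 3 in replicate 8. Against the 4 controls with number 1, 5 members fell and 3 rose, where 7.48% of all genes were called. The 5 were Mrpl32, Mrpl42, Mrpl57, Mrps15 and Mrps9, and the 3 that rose were Mrps24, Mrps14 and Mrpl28, all with bacterial counterparts. Against the 4 controls with number 2 or 3, no member and no other gene was called by edgeR, with 6 members lower and 0 higher at an unadjusted p under 0.05, where 13.1% of all genes passed in either direction. Yet 70 of 78 estimates were below 0 there, with a median of -0.10, whereas 49 of 78 were below 0 against the first 4, with a median of -0.03.

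Comparing the 2 sets of controls, Mrps24 had 7.54 ± 1.02 CPM with number 1 and 11.3 ± 0.656 CPM with number 2 or 3 (SD, n = 4 each). Mrps14 had 16.7 ± 1.25 and 23.6 ± 3.31 CPM, and Mrpl28 18.7 ± 0.673 and 23.3 ± 1.15 CPM. These 3 genes were taken because they rose against the first 4 controls and were not called against all controls. That choice favours a gap between the sets, and the difference between the sets was not tested. Their log2 fold changes of 0.45, 0.39 and 0.31 against the first 4 controls became -0.14, -0.11 and -0.01 against the other 4. Mrpl32 was below both sets, with 20.8 ± 1.64 and 18.5 ± 2.75 CPM in the controls and 14.7 ± 2.11 CPM in CSS (n = 8), and its log2 fold change was -0.50 against the first and -0.34 against the second. Mrps15 had 19.8 ± 1.65 and 16.5 ± 2.29 CPM in the 2 sets of controls. Mrpl57 had 20.3 ± 2.58 and 17.1 ± 0.676 CPM, and Mrpl42 32.7 ± 0.963 and 31.3 ± 2.15 CPM (SD, n = 4 each). Their log2 fold changes were -0.44, -0.42 and -0.26 against the first set. Against the second they were -0.19, -0.17 and -0.20, with edgeR's adjusted p-values of 0.424, 0.409 and 0.320. Among the CSS libraries the code number is 1 in replicate 1, 2 in replicate 2, 3 in replicates 3 to 5 and 4 in replicates 6 to 8, so that number 4 holds CSS mice alone and the number and the group can be separated only in part. With the number as a factor of the fit, no member was called and 2 of 15097 genes were. The log2 fold changes were then -0.33 for Mrpl32, -0.32 for Mrps15, -0.22 for Mrpl57 and -0.13 for Mrpl42, with adjusted p-values from 0.240 to 0.482 by edgeR.

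**Figure D5:**
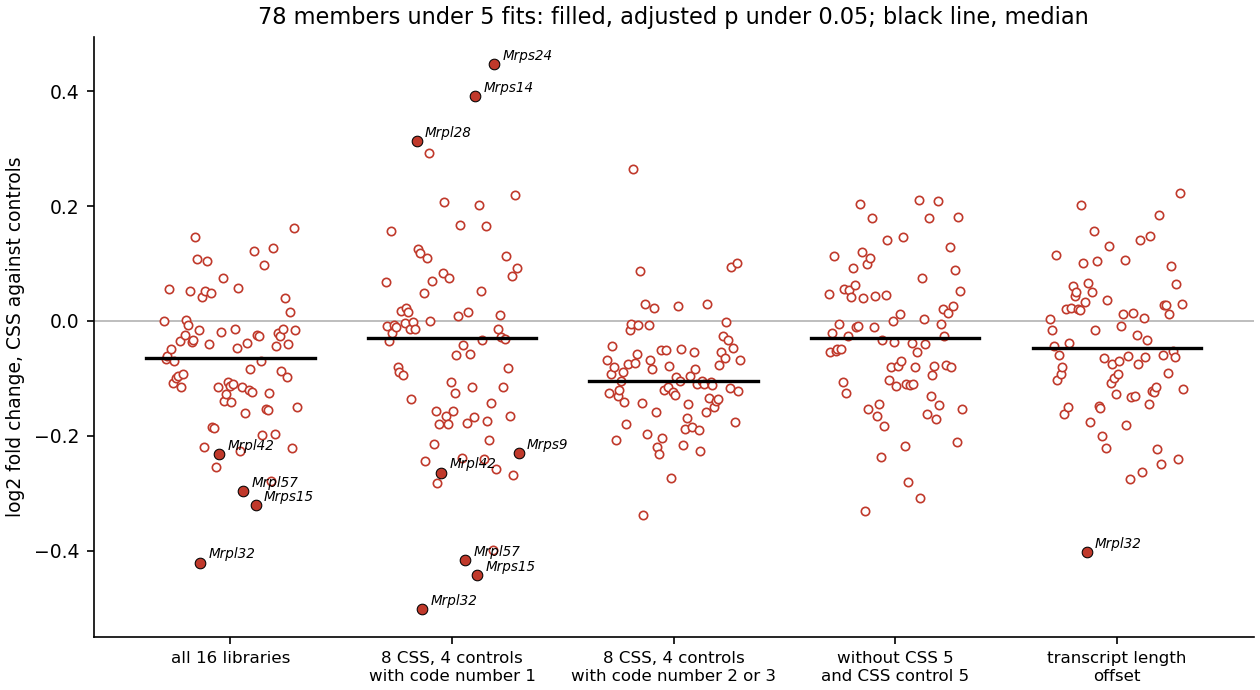
Log2 fold changes of the 78 members in CSS under 5 fits: all 16 libraries, only the controls with code number 1, only those with code number 2 or 3, without CSS replicate 5 and CSS control replicate 5, and with an offset for transcript length. Filled points passed an adjusted p of 0.05 and black lines are medians, which run from -0.10 to -0.03. The number of filled points is 4, 8, 0, 0 and 1.

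Markers of other cells moved in the CSS cohort as well, in the fit to all 16 libraries. That fit called 2.42% of all genes lower and 2.11% higher. Of 10 microglial markers, 5 fell and 0 rose, and their sum was between 190.9 and 373.8 CPM in CSS and between 359.0 and 413.1 CPM in the controls. Of 8 meningeal fibroblast markers, 1 rose, with sums of 41.7 to 146.1 CPM against 41.5 to 82.7 CPM. CSS replicate 5 held the lowest microglial and the highest fibroblast sum. Of 8 astrocyte, 6 oligodendrocyte precursor and 8 endothelial markers, 2 of each list rose, with sums of 4183 to 5033 against 3763 to 4372 CPM, 369.2 to 457.5 against 347.1 to 404.6 CPM and 150.9 to 221.1 against 156.8 to 188.7 CPM. Of 8 inhibitory neuron markers 2 fell, with sums of 666.8 to 921.2 against 739.1 to 946.4 CPM. None of 10 excitatory neuron markers was called, with 6 below 0 and sums of 1542 to 2399 against 1581 to 2249 CPM. None of 8 oligodendrocyte markers was called, with 7 below 0 and sums of 2660 to 3590 against 2890 to 3745 CPM. None of 5 red blood cell genes was called, with sums of 133.2 to 574.9 against 101.9 to 231.1 CPM, and none of 8 striatal markers, with sums of 659.6 to 1071 against 729.8 to 1447 CPM. No marker of these lists was at 0 in every library, and the part of these cells in the members' values was not tested.

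In the diabetic cohort no mitochondrial ribosomal protein gene was called. No gene at all was called there by edgeR (0 of 15054, 0%). DESeq2 called 4 genes and limma voom 0, and no member was among them. At an unadjusted p under 0.05, 1 member was higher and 1 lower, where 2.97% and 2.87% of all genes were (5.84% in all). In data simulated on these libraries, 11% of 100 genes changed by 1.25-fold were recovered in T2D and 53% in CSS, and at 1.5-fold 70% and 87%. The simulated counts held no shift shared by the genes of a library, and only genes at 5 CPM or more were changed. Recovery in the real libraries may thus be lower, and it was not measured. Estimates lay close to 0, with 50 of 78 below 0 (49.2% of all genes) and a median of -0.02 against 0.002 over all genes.

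The 2 members were again Mrpl32 and Mrpl57, in opposite directions. Mrpl32 had 12.1, 14.4 and 14.96 CPM in the lowest, median and highest diabetic library and 14.2, 16.1 and 17.9 CPM in the controls. All 6 diabetic libraries were below the control mean, at a log2 fold change of -0.23 ± 0.090 (SE). Mrpl57 had 15.9, 18.7 and 20.8 CPM against 14.5, 15.7 and 16.9 CPM, so that all 6 diabetic libraries were above the control mean, at 0.23 ± 0.089 (SE). The adjusted p was 0.825 for both by edgeR. Mrps28 at 0.20, Mrpl52 at 0.18, Mrpl23 at 0.16 and Mrpl53 at 0.15 were the next highest, and Mrpl18 at -0.14 and Mrps9 at -0.11 the next lowest (log2 fold changes). The groups overlapped for every member, where 0.0864% of all genes separated as lower and 0.0598% as higher.

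Of the lists of the mitochondrial expression system none had a called gene in T2D. The members' mean log2 level was highest in T2D replicate 1, at 0.15, and in T2D control replicate 4, at 0.13, and these were the libraries of the cohort with the lowest length slopes, -0.0615 and -0.0497. The slope did not differ detectably between diabetic mice and controls (exact permutation p = 0.387). Without both libraries the median log2 fold change was -0.04 and no member was called. Microglial markers were lower in estimate for 10 of 10 genes in T2D, with 0 called and sums of 179.9 to 353.4 against 218.2 to 362.2 CPM. Striatal markers were higher in estimate for 8 of 8 genes, with 0 called and sums of 183.9 to 1431 against 228.1 to 1319 CPM. Excitatory neuron markers were lower for 8 of 10 genes, with 0 called and sums of 1270 to 2263 against 1610 to 2151 CPM. Meningeal fibroblast markers were higher for 7 of 8 genes, with 0 called and sums of 46.5 to 133.6 against 44.8 to 55.8 CPM. The part of these cells in the members' values was not tested.

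The change in CSS minus the change in T2D was tested in 1 fit over all 28 libraries, so each cohort was set against its own controls. No member was called, where 0.0806% of 14888 genes were (0.0336% lower and 0.047% higher). At an unadjusted p under 0.05, 4 members were lower and 0 higher, where 6.36% and 6% of all genes were. The difference was widest for Mrpl57, which lay below the average control in all 8 CSS libraries and above it in 6 of 6 diabetic libraries. Its contrast was -0.53 ± 0.12 (log2, SE) with an adjusted p of 0.0672 by edgeR, which did not pass. DESeq2, and edgeR with genes under a mean of 5 CPM removed, each called Mrpl57 alone among the members, where they called 130 of 14888 and 24 of 11987 genes. In order of p, the other 3 members were Mrps15 at -0.36 ± 0.12 (adjusted p 0.225), Mrpl4 at -0.22 ± 0.091 (0.315) and Mrpl49, a large-subunit gene of mitochondria only, at -0.22 ± 0.10 (0.386). Mrps23 at -0.32 and Mrpl40 at -0.27 had wider contrasts than Mrpl4 and Mrpl49 but larger p-values. Mrpl32, low in both cohorts, had a contrast of -0.20 ± 0.14 with an adjusted p of 0.563. The median contrast of the members was -0.05, against -0.01 over all genes, and 52 of 78 were below 0, against 51.1% of all genes.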

How the data were processed

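RNA was measured by sequencing of total RNA (TruSeq Stranded Total RNA with Ribo-Zero Gold) from mouse frontal cortex, per the labels' protocols. The authors deposited 1 table of estimated counts for each cohort, with genes as rows. Nearly all values (99.9%) were not whole numbers. Per the submitters' processing notes, Salmon 1.1.0 was used with the build mm10. The sources used here do not give the summing over transcripts, any scaling for their length, the use of strand or the filter on low genes. Scaling for length would alter how long and short genes compare between libraries.

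Values were rounded and tested with edgeR 4.0.16 (R 4.3.3, TMM, robust quasi-likelihood test, default filter, Benjamini-Hochberg over all 15097, 15054 or 14888 genes, threshold 0.05), each cohort by itself and the difference over 28 libraries. Groups came from the titles. Levels are means ± SD over libraries, each from 1 mouse, and log2 levels used a prior count of 2. Gene models were those of GENCODE M21 (GRCm38, the assembly that mm10 names), promoters those of RefSeq (GRCm38.p6). Alternatives were DESeq2 1.42.0, limma voom 3.58.1, sva 3.50.0, other scalings and filters, covariates, a length offset and subsets of libraries. The fits were tested on simulated data. No 2 libraries agreed within sampling noise. Figures used matplotlib under Python.

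The members and lists were chosen with earlier results of these data known. The fits that leave out 2 libraries, the divergent neighbours' values, the alignment of transcripts and the split of controls' CPM by code number were added after the data were seen. Named were called members, the 8 of smallest p and the 4 highest and lowest by fold change in each comparison, the 4 highest and lowest by level, the S18 relatives, Mrps36 and Mrpl12, with some left out. Outside that rule, Mrpl3, Mrps9 in CSS, and the overlapping or matching genes were named after their values were seen.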

Additional observations from a re-analysis of the deposited data

Results flagged for a closer look

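In groups of 6 or 8 libraries, 7 of 144 sets of values had a library far from the rest by Dixon's ratio, where chance alone would give 7.2. Mrpl12 was 12.7 CPM in CSS replicate 3, with the other CSS libraries at 17.7 to 21.1 CPM. Mrpl4 was 19.3 CPM in CSS replicate 5, with the others at 21.8 to 23.9 CPM. Mrpl13 was 23.6 CPM in CSS control replicate 6, with the other controls at 18.1 to 20.7 CPM. Mrpl40 was 14.95 CPM in CSS control replicate 8, with the others at 17.5 to 19.5 CPM. Mrps21 was 30.2 CPM in T2D replicate 1, with the other diabetic libraries at 19.5 to 21.7 CPM. The mean log2 level of the 78 genes stood apart in CSS replicate 5 at -0.25 and in CSS control replicate 5 at 0.13, the libraries with the most extreme length slopes.

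Mrpl57 lay on opposite sides of the control mean in every CSS and every diabetic library. The difference between the responses, -0.53 on the log2 scale, had an adjusted p of 0.0672 by edgeR and did not pass the threshold.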

How the results depend on the processing

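The count of called members in CSS, 4 in the fit reported, was 8 with DESeq2 (all lower, the added ones being Mrpl4, Mrpl54, Mrpl40 and Mrps18b), 2 with RIN as a covariate, 1 with the length offset, 0 with the title code number as a factor, 8 against the controls with code number 1 and 0 against those with 2 or 3, and 0 without CSS replicate 5 and CSS control replicate 5. Leaving out single libraries gave 1 to 5. Over all genes the calls in CSS were 683 in the fit reported, 1313 with DESeq2, 434 with the length offset and 222 to 794 without single libraries. The replicate numbers that the groups share are not stated to pair mice. With them as a replicate block 2 members were called and 478 genes in all. Same-numbered libraries deviated together with correlations from -0.16 to 0.33 in CSS and -0.01 to 0.13 in T2D, and 2 of 8 and 0 of 6 pairs had their own number as the best match. In T2D the count was 0 under all alternatives run, and in the difference it was 1 with DESeq2 and 1 with the filter at 5 CPM. The cause of these changes was not tested, and some of these fits hold fewer libraries or genes.

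The median log2 fold change in CSS stayed between -0.10 and -0.03 under all alternatives run, while that in T2D ranged from -0.07 to 0.02, above 0 only with 1 surrogate variable. Among the members named for CSS, the estimates that changed sign against the controls with code number 2 or 3 were those of Mrpl28 (-0.0062), Mrps24 (-0.14), Mrps14 (-0.11), Mrps36 (-0.047) and Mrpl12 (-0.043). Mrps36 ranged from -0.032 to 0.051 without single libraries, below 0 without CSS replicate 1, 4 or 7 or CSS control replicate 2. Among those named for T2D, Mrpl23 (-0.29) and Mrpl21 (0.012) changed sign with 1 surrogate variable. Levels per kb of all exons had a median of 8.04 CPM per kb, against 11.05 per kb of the longest transcript. In data simulated on the T2D libraries, 11% of 100 genes changed by 1.25-fold were recovered. Most differences of that size were thus below what the test recovered in those simulated data.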
